A study of Homo sapiens with 4 samples.

Results

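The RBM genes encode proteins with RNA-binding motifs, and the cassette exons of these genes were compared between human breast cancer cells that received an SSE mimetic or a scrambled oligo. Genes were chosen by symbol alone: protein-coding genes of GENCODE release 29 whose symbol starts with RBM followed by a digit, on the autosomes or the X chromosome. An event belonged to them when its skipped exon matched an exon of such a gene on the same strand, or when both exons beside it did. That gave 132 of the 45977 events present in both groups' tables, 129 through the skipped exon and 3 through the flanking exons. Several events share a skipped exon, so the 132 events stand for 103 of 39120 exons. Of 38 such genes in the annotation, 31 had an event of their own, RBM14-RBM4 (a read-through transcript of neighbouring genes) shared its events with RBM4, and RBM15B, RBM20, RBM22, RBM43, RBM44 and RBM48 had none.

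RNA was sequenced from MDA-LM2, a lung-metastatic derivative of the breast cancer line MDA-MB-231, grown in supplemented DMEM. Both groups were transfected by lipofection, with the SSE mimetic in 2 samples and the scrambled oligo in 2 samples, and no group without transfection was among them. The deposited tables hold 1 pooled read set per group, so no value carries a spread between replicates and no test across samples could be made. All cells were of 1 line, and separate cultures within a group are not stated in the labels.

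RBM proteins bind pre-mRNA through RNA recognition motifs, and many are parts or regulators of the spliceosome. RBM39 and its close relative RBM23 work with U2AF at the start of an exon, RBM17 and RBM5 act at 3′ splice sites, RBM25 acts at 5′ splice sites, and RBM8A is a core subunit of the exon junction complex. Genes of this kind often contain poison exons, which bring a stop codon into the reading frame and send the transcript to nonsense-mediated decay (NMD), so the same gene can appear in an exon table through coding exons and through exons that lower its protein output.

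In what follows, a pair of values joined by "against" gives the SSE mimetic group first and the scrambled group second. The exons that carry the results are shown here as sequence, 5′ to 3′ on the gene's strand, cut from GENCODE release 29 transcripts on GRCh38 (hg38). The first set shows poison exons of RBM39, each from its first base to the annotated stop codon. RBM39 was chosen because it had the most RBM exons that lie in NMD transcripts and in no protein-coding one, 7 of 17. Of these 7, 6 hold an annotated stop codon. Below, exons are called poison exons by that transcript class alone. Capitals mark the stop codon. The printed spans are chr20:35740526-35740597 for the 73-nt exon, chr20:35739410-35739547 for the 155-nt exon and chr20:35736549-35736567 for the 55-nt exon, all on the minus strand.
RBM39 73-nt exon: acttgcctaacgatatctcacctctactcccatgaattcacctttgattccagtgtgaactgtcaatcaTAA
RBM39 155-nt exon: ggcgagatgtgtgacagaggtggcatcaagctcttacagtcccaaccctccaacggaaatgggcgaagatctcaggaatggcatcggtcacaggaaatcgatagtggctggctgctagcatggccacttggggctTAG
RBM39 55-nt exon: atccctaaatgcttcaTAG

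A second set shows exons that exist in a short and a long form, because a called form and its short form share bases and reads. In RBM39 a 72-nt poison exon forms the end of an 896-nt exon, and the stretch printed (chr20:35734215-35734317, minus strand, bases 765 to 867 of the long form) runs from 60 bases before the short form to its stop codon. Its capitals mark the AG directly before the short form and the stop codon. In RBM14 a 111-nt exon forms the start of a 1465-nt exon, and the first 150 bases of the long form are printed (chr11:66624214-66624363, plus strand) with the GT that follows the short form in capitals. In RBM3 a 70-nt, a 107-nt and a 523-nt form share their first base, and the first 120 bases of the longest are printed (chrX:48575561-48575680, plus strand). There the capitals mark the bases directly after the 70-nt form, which are GC, and directly after the 107-nt form, which are GT. The 90-nt form of an RBM39 exon is printed whole (chr20:35729462-35729551, minus strand), with the AG before its 66-nt coding form in capitals.
RBM39 896-nt exon, near its end: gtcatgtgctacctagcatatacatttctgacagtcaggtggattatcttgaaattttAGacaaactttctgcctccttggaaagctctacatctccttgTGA
RBM14 1465-nt exon, first 150 bases: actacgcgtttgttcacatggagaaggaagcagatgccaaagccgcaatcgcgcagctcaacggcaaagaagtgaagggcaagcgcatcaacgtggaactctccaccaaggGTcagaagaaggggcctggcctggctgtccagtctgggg
RBM3 523-nt exon, first 120 bases: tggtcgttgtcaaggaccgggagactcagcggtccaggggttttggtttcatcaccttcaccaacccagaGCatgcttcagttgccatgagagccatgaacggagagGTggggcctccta
RBM39 90-nt exon: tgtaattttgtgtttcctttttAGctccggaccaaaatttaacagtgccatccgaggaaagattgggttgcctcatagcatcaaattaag

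The inclusion of an exon is given as percent spliced in (Ψ), the share of transcripts that keep the exon, from 0 to 1, with the 95% credible interval of the authors' run. The kinds of reads behind it are as follows. Inclusion reads match the form with the exon only, skipping reads match the form without it only, and shared reads match both. The sum of inclusion and skipping reads is the isoform-specific depth, and an exon was tested when that depth was at least 10 in each group. An exon was called when the Bayes factor of the authors' deposited table, which weighs a difference against no difference, reached 10 and the groups' Ψ lay 0.1 or more apart. All intervals, credible or binomial, cover at most the counting error, since each group is 1 pooled read set. Without molecular identifiers several reads can come from 1 molecule, so the intervals can be too narrow even for that error.

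Called RBM exons numbered 2, a share not far from that of all tested exons. Of 103 exons, 35 in 13 genes were tested, 34.0% against 21.0% of all exons, and 68 fell below the read minimum. Of those 68, 42 missed it with the SSE mimetic alone, 1 with the scrambled oligo alone, and 5 had no isoform-specific read in either group. A single RBM39 exon was called higher with the SSE mimetic and a single RBM14 exon lower, and 33 were not called. These 2 of 35 (5.71%) stand beside a background of 3.99% of all 8228 tested exons, 3.1% higher and 0.887% lower. In the second reading, a two-sided Fisher's exact test of inclusion against skipping reads in the pooled libraries with Benjamini-Hochberg adjustment over all tested exons, 0 of 35 RBM exons passed, against 1.01% of all tested exons. At an unadjusted p below 0.05 that test gave 4 of 35 RBM exons and 5.51% of all. It compares those libraries, not the conditions.

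In the deposited values, the sign of a small difference went with the level of the exon. The median difference of Ψ, SSE mimetic minus scrambled, was -0.01 over the 35 tested RBM exons (quartiles -0.07 and 0.06, 17 above 0 and 18 below) and -0.03 over all tested exons (quartiles -0.09 and 0.03). All 16 RBM exons with a scrambled Ψ of at least 0.9 lay below 0, with a median of -0.07, the same as the median of all exons at that level. All 10 with a scrambled Ψ of at most 0.1 lay above 0, with a median of 0.055 against 0.04 for all such exons. Over all tested exons, 3752 of 3965 lay below 0 at the high end and 912 of 1042 above 0 at the low end. Ψ is bounded by 0 and 1 and the SSE mimetic group has fewer reads. How far either bears on these signs was not tested, and the signs are a description only. With scrambled reads scaled by a common factor of 0.2114, the recomputed difference was above 0 in 7 of the 16 high exons and below 0 in 9, with a median of -0.012. In the 10 low exons it was above 0 in 9 and below 0 in 1, with a median of 0.01. The same scaling turned the median over all tested exons from -0.03 to 0.0174.

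**Figure D1:**
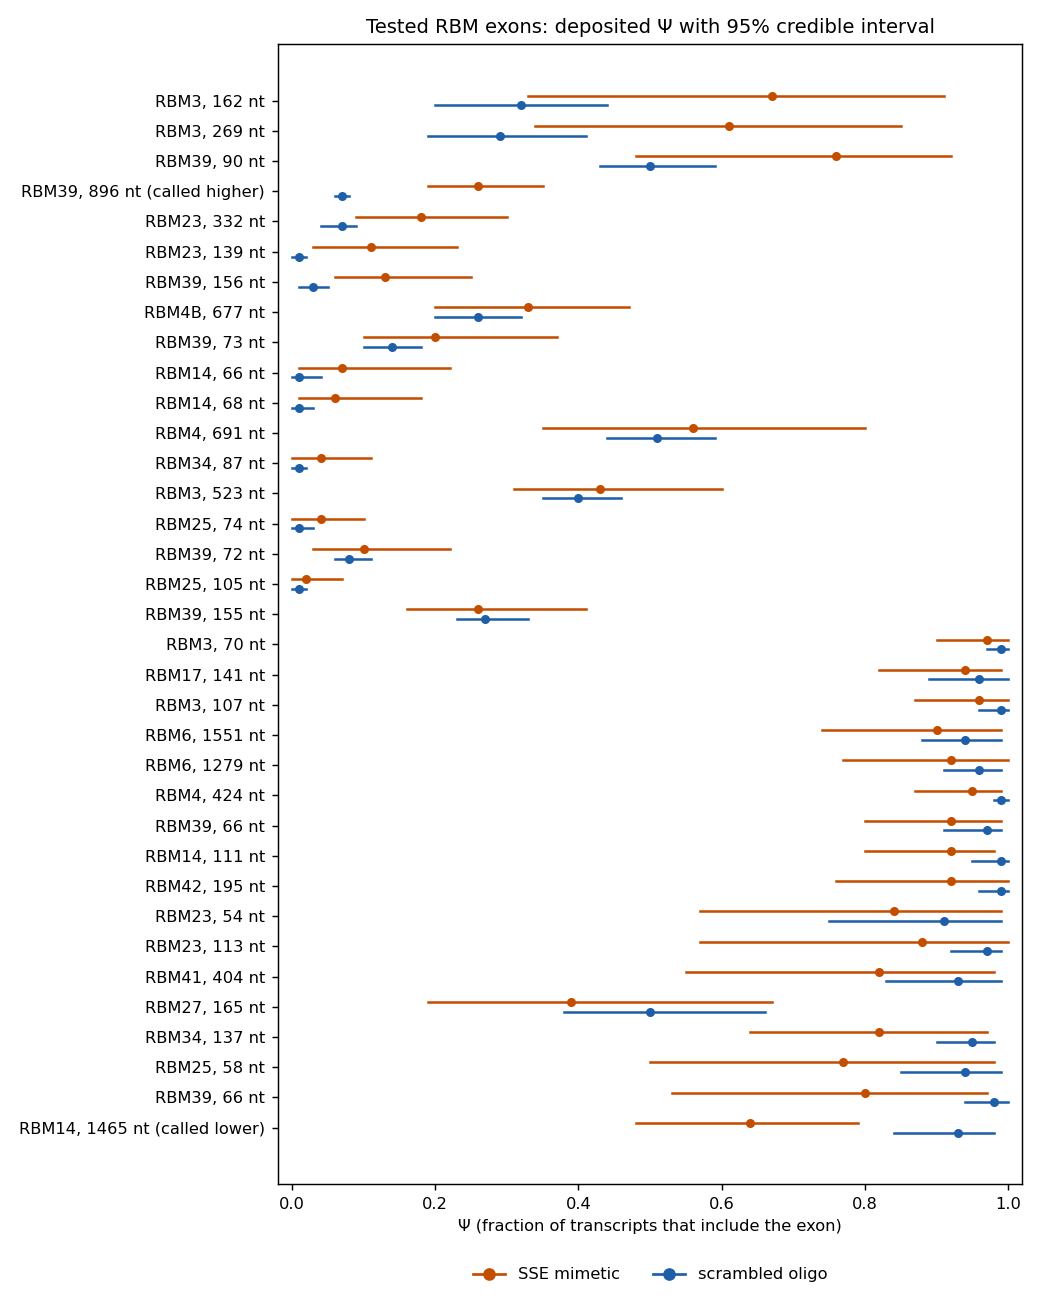
Percent spliced in (Ψ, horizontal axis, 0 to 1) of the 35 tested RBM exons with either oligo (SSE mimetic or scrambled), 1 exon per row, ordered by the difference; points are the authors' estimates from 1 pooled read set per group and bars their 95% credible intervals. The intervals of the groups were apart for 4 exons, and the RBM14 1465-nt exon has the lowest difference, -0.29.

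Most coding exons had a lower estimate and most noncoding exons a higher one, without a test of the classes. Among 21 tested coding or partly coding exons, 16 had a lower Ψ with the SSE mimetic and 5 a higher one, with a median difference of -0.05 and a median scrambled Ψ of 0.94. Among 12 tested exons found only in transcripts that are not classed as protein-coding (NMD, retained-intron or processed transcripts), 10 were higher and 2 lower, with a median difference of 0.045 and a median scrambled Ψ of 0.205. The 6 partly coding exons alone had 3 above and 3 below 0. Most coding exons started high and most noncoding exons low, and exceptions near a bound had the sign of their level: the RBM14 66-nt, RBM14 68-nt and RBM34 87-nt coding exons, at a scrambled Ψ of 0.01, differed by 0.06, 0.05 and 0.03, and the noncoding RBM3 70-nt exon, at 0.99, by -0.02. Coding or partly coding exons at intermediate levels went either way: RBM27 165 nt, at 0.50, by -0.11, RBM4 691 nt, at 0.51, by 0.05, and RBM4B 677 nt, at 0.26, by 0.07. The noncoding RBM39 155-nt exon, at 0.27, differed by -0.01. Inclusion reads were 5.48 times as many in the scrambled group as in the SSE mimetic group over the coding exons, and 4.12 times as many over the noncoding exons. The noncoding exons were not alike in this. The ratio was 6.84 over the 5 exons of NMD transcripts (38 reads against 260) and 3.81 over the other 7 (333 against 1269). Nested forms in these sums share reads.

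**Figure D2:**
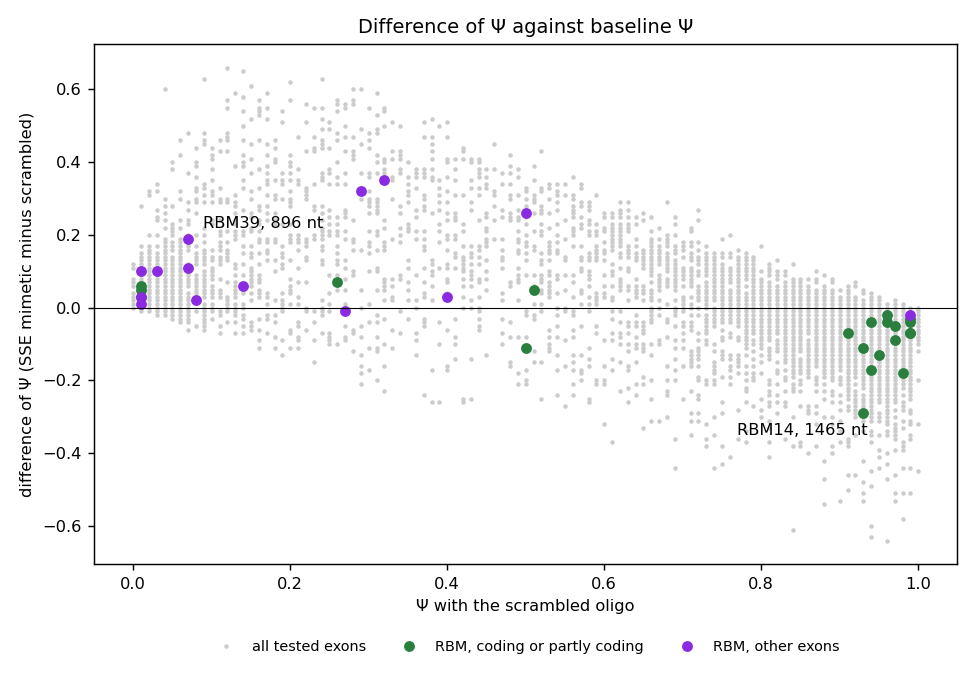
Difference in Ψ (SSE mimetic minus scrambled, vertical axis) against scrambled Ψ (horizontal axis), with all 8228 tested exons in grey, coding or partly coding RBM exons in green and the other RBM exons in purple. RBM exons with a scrambled Ψ of at least 0.9 lie below 0 and those at 0.1 or less lie above it, as most grey points do, which with scaled scrambled reads held for 9 of 16 and 9 of 10.

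Depth was unequal, and more so for some kinds of reads. In the 132 RBM events, isoform-specific reads numbered 1978 with the SSE mimetic, against 11446 with the scrambled oligo, a ratio of 5.79, and for all events it was 4.73. Reads that matched neither form, which include those inside the flanking introns, differed less, with 81774 against 190201 and a ratio of 2.33 (1.54 for all events). They made up 91.7% of the reads of RBM events with the SSE mimetic, against 83.1% with the scrambled oligo. Inclusion reads had a ratio of 5.42, shared reads 5.02 and skipping reads 8.33, or 247 against 2057. The median width of the credible interval over the tested RBM exons was 0.24 with the SSE mimetic, against 0.08 with the scrambled oligo. In bulk RNA, fewer cells of a kind and less RNA per cell cannot be told apart. Of 7 genes listed as markers of the line, 4 had exons here, with 694 and 5249 isoform-specific reads together. These were 466 and 4281 for CD44, the hyaluronan receptor, 181 and 392 for LGALS1, 31 and 474 for ANXA1 and 16 and 102 for AXL. The luminal genes ESR1, GATA3, FOXA1 and CDH1 together had 31 and 48, the leukocyte gene PTPRC had 19 and 26, and the albumin gene ALB had 15 and 21. The vimentin gene VIM has no exon in these tables, so the mesenchymal state of the line was not checked through it, nor have the fibroblast and endothelial markers listed an exon there.

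**Figure D3:**
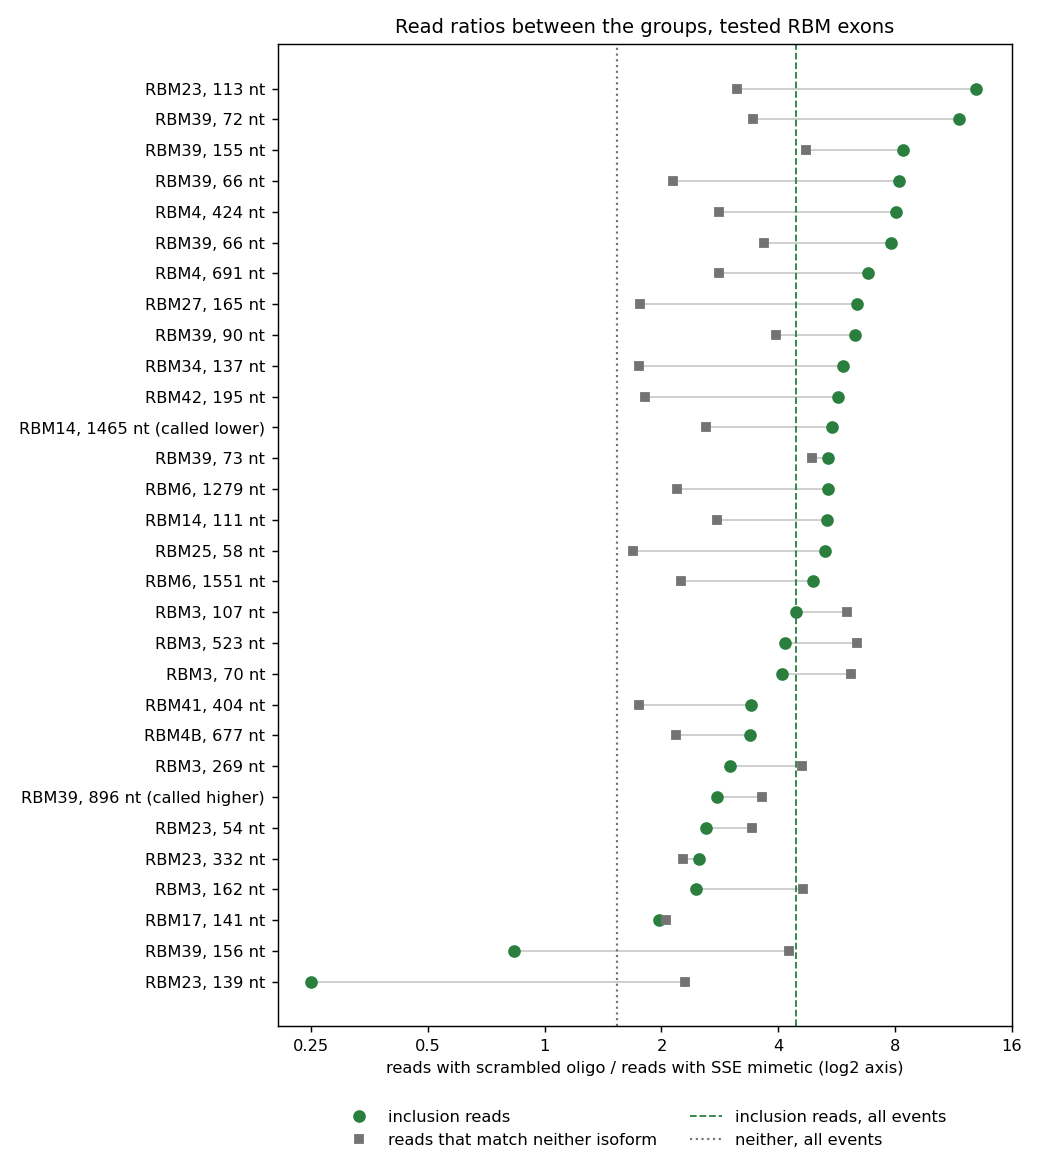
Ratio of reads, scrambled over SSE mimetic, on a log2 axis, for inclusion reads and for reads matching neither form, in the 30 tested RBM exons that had inclusion reads in both groups; lines mark the ratios over all events, 4.45 and 1.54. In 20 exons the inclusion ratio was above the ratio of reads matching neither form, and in 10, among them 5 RBM3 exons and the RBM39 896-nt exon, it was below.

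RBM39, the U2AF-related splicing factor that aryl sulfonamide drugs send to degradation, had 12 exons in the table and 8 tested. The exon called higher was its 896-nt exon (chromosome 20, 35734186 to 35735081, minus strand), which GENCODE lists only in a retained-intron transcript. Its Ψ was 0.26 (0.19 to 0.35) with the SSE mimetic, against 0.07 (0.06 to 0.08) with the scrambled oligo. The difference was 0.19, with a Bayes factor at the program's cap of 1e12 in the authors' deposited table. The intervals were far apart, and this was the most strongly weighted difference among the RBM exons.

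The reads behind that value were 103 inclusion, 7 skipping and 68 shared reads with the SSE mimetic. With the scrambled oligo they were 286 inclusion, 71 skipping and 736 shared reads. Every class of reads was thus larger in the scrambled group, but inclusion reads by 2.78 times and skipping and shared reads by 10.1 and 10.8 times. The inclusion share of isoform-specific reads was 93.6% (exact binomial 87.3 to 97.4) against 80.1% (75.6 to 84.1). Fisher's exact test gave p = 0.000653, and 0.0578 after adjustment over all tested exons. Reads matching neither form had a ratio of 3.64. Divided by the length of the flanking introns they give the intron density, which thus also counts reads in other exons of that span. Inclusion reads lay at 115 per kb of exon beside an intron density of 80.5 per kb with the SSE mimetic. With the scrambled oligo they lay at 319 beside 293. After subtraction of that intron density, a recomputed Ψ was 0.11 against 0.006, a difference of 0.103 that still met both criteria.

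The short form nested in it was not called. The 72-nt poison exon (chromosome 20, 35734186 to 35734257) ends at the same base, starts behind the AG printed above and shares the same 7 and 71 skipping reads. Its Ψ was 0.10 (0.03 to 0.22) against 0.08 (0.06 to 0.11), a difference of 0.02, from 3 and 35 inclusion reads. Whether the forms differ from each other in their response was not tested. A second event for the 896-nt exon, which starts from the 55-nt poison exon as its upstream neighbour, uses the same 103 and 286 inclusion reads and no skipping read. There Ψ was 0.30 (0.22 to 0.41) against 0.08 (0.07 to 0.09).

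Of 7 RBM39 exons that occur in NMD transcripts and in no protein-coding one, 4 were tested, and none was called. The 73-nt exon (chromosome 20, 35740525 to 35740597), whose stop codon ends 8 annotated NMD transcripts, had a Ψ of 0.20 (0.10 to 0.37) against 0.14 (0.10 to 0.18), from 8 inclusion and 13 skipping reads against 43 and 95. The 155-nt exon (35739393 to 35739547) had 0.26 (0.16 to 0.41) against 0.27 (0.23 to 0.33), from 21 inclusion reads against 176 and the same skipping reads. For both exons the intervals of the groups overlapped widely. The level itself depends on the neighbours assumed, since a second event of the 155-nt exon gave 0.50 (0.29 to 0.73) against 0.56 (0.47 to 0.65). The 55-nt exon, below the read minimum, had 0.04 (0.00 to 0.15) against 0.00 (0.00 to 0.02).

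The 156-nt exon was the poison exon whose intervals did not overlap. Its Ψ was 0.13 (0.06 to 0.25) against 0.03 (0.01 to 0.05), a difference of 0.10, and a Bayes factor of 4.46 in the authors' deposited table left it uncalled. It had 6 inclusion reads with the SSE mimetic, against 5 with the scrambled oligo, although its skipping reads numbered 7 and 38 and its shared reads 53 and 207. Fisher's exact test gave p = 0.0126 and an adjusted p of 0.386.

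In the events kept, the tested coding exons of RBM39 had lower estimates with the SSE mimetic, within their error. The 66-nt coding exon at 35716740 to 35716805 had a Ψ of 0.80 (0.53 to 0.97) against 0.98 (0.94 to 1.00). The other 66-nt coding exon (35729462 to 35729527) had 0.92 (0.80 to 0.99) against 0.97 (0.91 to 0.99). A second event of that exon, with another form of the downstream exon, did not have the lower estimate. It gave 0.83 (0.63 to 0.98) against 0.82 (0.71 to 0.93), from 27 inclusion reads against 232. Neither exon had a skipping read in either group, so the difference rests on inclusion against shared reads: 18 and 76 against 147 and 347 for the former. The 90-nt form of the latter, listed in a retained-intron transcript, had 0.76 (0.48 to 0.92) against 0.50 (0.43 to 0.59), a difference of 0.26 with overlapping intervals and a Bayes factor of 2.19 in the authors' deposited table. The level of the 90-nt form also depends on the downstream exon assumed. Its other event, below the read minimum, had 0.15 (0.07 to 0.30) against 0.04 (0.02 to 0.06), with intervals apart and a Bayes factor of 2.2. That event had 4 inclusion reads against 12. Long and short forms of this exon share all 68 and 736 shared reads, and the inclusion reads of each (30 and 189 for the long form, 43 and 335 for the short) can stem from the same molecules.

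**Figure D4:**
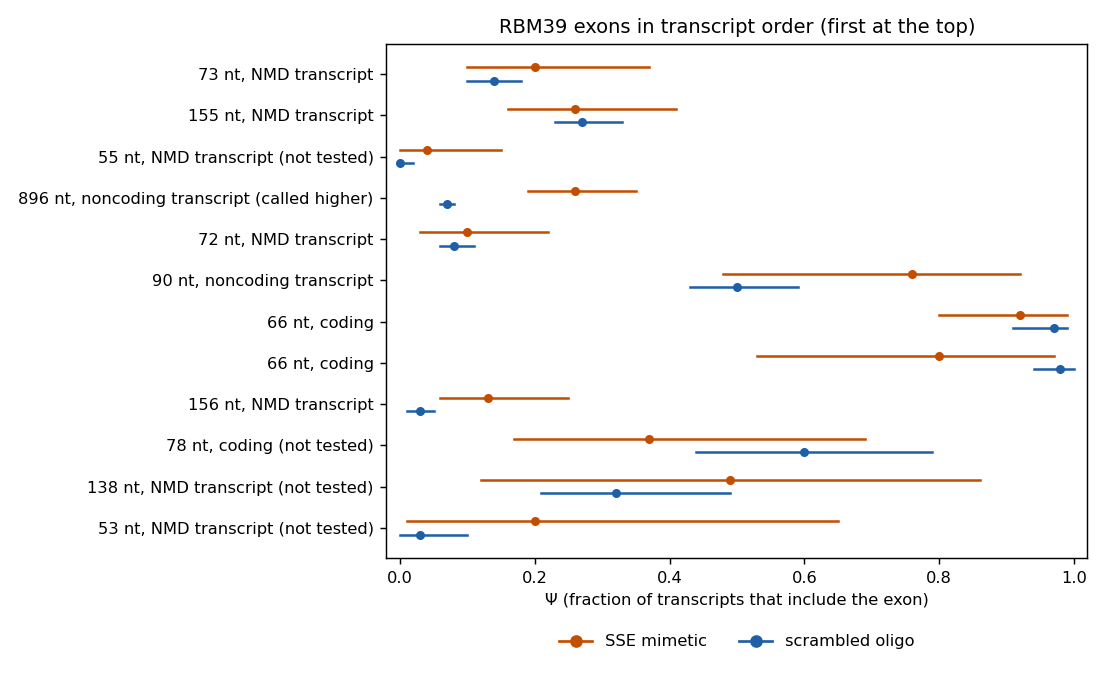
Percent spliced in (Ψ) of the 12 RBM39 exons in transcript order, with either oligo (SSE mimetic or scrambled); points are the authors' estimates from 1 pooled read set per group and bars are 95% credible intervals. The 896-nt exon at 0.26 against 0.07 and the 156-nt exon at 0.13 against 0.03 have intervals that do not overlap, while those of the 73-nt and 155-nt poison exons overlap.

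RBM23, the paralog of RBM39, had 4 tested exons and none called. Near its start, 6 exons share 1 skipping junction, with 7 reads in the SSE mimetic group, against 55 in the other, so their values are not separate measurements. The 139-nt exon (chromosome 14, 22917028 to 22917166, minus strand), an untranslated exon of a protein-coding transcript, had a Ψ of 0.11 (0.03 to 0.23) against 0.01 (0.00 to 0.02). There were 4 inclusion reads with the SSE mimetic, against 1 with the scrambled oligo, an inclusion share of 36.4% (exact binomial 10.9 to 69.2) against 1.79% (0.0452 to 9.55). Its intervals were apart, but the authors' deposited table gives a Bayes factor of 2.62, and Fisher's exact test gave p = 0.00196 and 0.112 after adjustment. The Bayes factor recomputed from the same reads was 20.1, but it was 1.28 with scaled scrambled reads, and after subtraction of intron density the difference was 0.027 with a Bayes factor of 0.034.

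The 332-nt exon next to it (22917471 to 22917802), which is not annotated, had a Ψ of 0.18 (0.09 to 0.30) against 0.07 (0.04 to 0.09), from 16 inclusion reads against 40. The coding 113-nt exon (22909483 to 22909595) had 0.88 (0.57 to 1.00) against 0.97 (0.92 to 0.99), from 11 inclusion reads against 142. The untranslated and unannotated exons near the start thus had higher estimates with the SSE mimetic and the coding exon a lower one, and only the interval of the 139-nt exon was apart.

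RBM14, a coactivator and paraspeckle protein also known as CoAA, carried the exon called lower. The 1465-nt coding exon (chromosome 11, 66624214 to 66625678, plus strand) stood at a Ψ of 0.64 (0.48 to 0.79) in the SSE mimetic group, against 0.93 (0.84 to 0.98) with the scrambled oligo. The difference was -0.29, with a Bayes factor of 695.33 in the authors' deposited table. Not 1 skipping read was seen in either group: the reads were 60 inclusion and 248 shared against 329 inclusion and 886 shared. The lower Ψ therefore corresponds to more shared reads per inclusion read, 4.13 against 2.69, and the inclusion share was 100% in both groups.

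Reads matching neither form were 2.60 times as many in the scrambled group, and inclusion reads 5.48 times. Inclusion reads lay at 41.0 per kb of exon with the SSE mimetic, below the intron density of 73.4 per kb. With the scrambled oligo they lay at 225 beside 191. A 422-nt exon of another RBM14 event lies in that span, and its reads would count in the intron density. Recomputed from the same reads, the difference was -0.29 with a Bayes factor of 8.59, and with scaled scrambled reads it was -0.24 with 2.15, both short of a call. After subtraction of the intron density no isoform-specific read was left with the SSE mimetic. The 111-nt form that shares its first base (66624214 to 66624324) had 0.92 (0.80 to 0.98) against 0.99 (0.95 to 1.00), from 23 inclusion and 248 shared reads against 123 and 886. Its ratio of shared to inclusion reads was 10.8 against 7.20, and it was not called.

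RBM14's other tested exons, of 66 and 68 nt, had no inclusion read in either group and the same 17 and 91 skipping reads. Downstream of RBM14 lies RBM4, a splicing and translation regulator, and both are joined in the read-through transcript. RBM4's 424-nt exon (66639700 to 66640123) had 0.95 (0.87 to 0.99) against 0.99 (0.98 to 1.00), from 62 inclusion reads against 498. Every event of that exon takes RBM14's first exon as the upstream neighbour, so this level belongs to the read-through form. RBM4's 691-nt exon (66643450 to 66644140), with the 424-nt exon upstream, had 0.56 (0.35 to 0.80) against 0.51 (0.44 to 0.59), from 38 inclusion reads against 259. When the upstream neighbour is RBM14's first exon instead, the 691-nt exon had 0.72 (0.48 to 0.95) against 0.96 (0.87 to 1.00), so its level depends on the neighbour that the event assumes. RBM4B, the neighbouring copy of RBM4, had a 677-nt exon at 0.33 (0.20 to 0.47) against 0.26 (0.20 to 0.32). Subtraction of intron density left no isoform-specific read of the 691-nt or the 677-nt exon with the SSE mimetic. With the scrambled oligo it left 113 and 8. Reads of near-identical stretches of RBM4 and RBM4B can be split between them.

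RBM3, the cold-inducible RNA-binding protein, had 5 tested exons, all variants of the same stretch of the X chromosome, and none called. The 107-nt coding form (48575561 to 48575667) had a Ψ of 0.96 (0.87 to 1.00) against 0.99 (0.96 to 1.00), from 84 inclusion reads against 373. The 523-nt form (48575561 to 48576083) had 0.43 (0.31 to 0.60) against 0.40 (0.35 to 0.46), from 98 against 409. It contains the 107-nt form, so the same reads can count for both. No isoform-specific read of the 523-nt form was left in either group after subtraction of intron density. For both forms the intervals of the groups overlapped.

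The noncoding 269-nt and 162-nt exons at the end of that stretch gave the largest positive differences among the tested RBM exons. Ψ was 0.61 (0.34 to 0.85) against 0.29 (0.19 to 0.41) for the former, from 12 inclusion reads and 1 skipping read against 36 and 13. For the latter it was 0.67 (0.33 to 0.91) against 0.32 (0.20 to 0.44), from 11 and 1 against 27 and 13. Their intervals overlapped and the authors' deposited table gives Bayes factors of 3.25 and 2.34. They end at the same base and share their skipping reads, so they count as 1 observation. For these 5 exons, reads matching neither form differed between the groups by more than inclusion reads did, by 4.60 to 6.40 times.

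The splicing factors RBM25 and RBM17, the RNA decay factor RBM27 and the remaining tested genes had no called exon. RBM25's 58-nt coding exon had 0.77 (0.50 to 0.98) against 0.94 (0.85 to 0.99), from 18 inclusion reads against 95 and no skipping read. Its 105-nt poison exon (chromosome 14, 73088370 to 73088474) was nearly always skipped, with 0.02 (0.00 to 0.07) against 0.01 (0.00 to 0.02) and 27 skipping reads against 111. RBM17, a U2-associated 3′ splice site factor, had its 141-nt exon at 0.94 (0.82 to 0.99) against 0.96 (0.89 to 1.00).

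RBM27 helps direct polyadenylated nuclear RNA to decay, and its 165-nt exon was the tested coding exon with an intermediate Ψ in both groups, which is why it is shown whole (chr5:146251711-146251875, plus strand, no capitals).
RBM27 165-nt exon: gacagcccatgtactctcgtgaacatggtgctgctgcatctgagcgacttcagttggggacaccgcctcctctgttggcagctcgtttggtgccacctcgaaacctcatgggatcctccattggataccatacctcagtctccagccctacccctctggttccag
Its length is a multiple of 3. Ψ was 0.39 (0.19 to 0.67) against 0.50 (0.38 to 0.66), from 8 inclusion and 2 skipping reads against 51 and 8. The intervals overlapped, and that with the SSE mimetic rests on 8 inclusion and 2 skipping reads.

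Among the other genes, RBM6, a relative of RBM5, kept its 1551-nt exon at 0.90 (0.74 to 0.99) against 0.94 (0.88 to 0.99), on 187 and 921 inclusion reads. RBM34's 137-nt exon had 0.82 (0.64 to 0.97) against 0.95 (0.90 to 0.98), from 30 inclusion and 2 skipping reads against 176 and 3. RBM41, a relative of the minor spliceosome protein RNPC3, had its 404-nt exon at 0.82 (0.55 to 0.98) against 0.93 (0.83 to 0.99), and RBM42's 195-nt exon stood at 0.92 (0.76 to 1.00) against 0.99 (0.96 to 1.00). All of these had lower deposited estimates with the SSE mimetic and intervals that overlapped.

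Below the read minimum, 2 noncoding exons passed the Bayes factor and the size. They are printed whole, without capitals, because their differences were the largest of any RBM exon that reached that Bayes factor (RBM18 at chr9:122243744-122243868, minus strand, and RBM4 at chr11:66644634-66644743, plus strand).
RBM18 125-nt exon: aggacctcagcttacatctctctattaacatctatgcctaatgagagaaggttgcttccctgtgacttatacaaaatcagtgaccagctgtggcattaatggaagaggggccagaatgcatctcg
RBM4 110-nt exon: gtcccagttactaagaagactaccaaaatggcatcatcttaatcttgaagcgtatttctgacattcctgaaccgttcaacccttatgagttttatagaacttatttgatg
The RBM18 exon had a Ψ of 0.61 (0.32 to 0.89) against 0.10 (0.04 to 0.20), with a Bayes factor of 219.99 in the authors' deposited table. It had 6 inclusion reads in each group, beside 1 skipping read with the SSE mimetic, against 37 with the scrambled oligo. The RBM4 exon had 0.45 (0.19 to 0.78) against 0.03 (0.00 to 0.10), with a Bayes factor of 28.41, from 4 inclusion and 3 skipping reads against 0 and 11. In both exons the groups' intervals were apart, yet fewer than 10 isoform-specific reads carried the value with the SSE mimetic. With scaled scrambled reads, the recomputed Bayes factor was 15.1 for RBM18 and 2.25 for RBM4. After subtraction of intron density the difference was 0.313 with a Bayes factor of 0.505 for RBM18, and 0.14 with 0.278 for RBM4.

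Genes whose products work with RBM proteins had no called exon. Over 55 symbols, 38 genes had 109 exons, of which 53 in 25 genes were tested, and 0 of 53 were called beside the 3.99% of all tested exons. By Fisher's exact test 0 passed after adjustment and 2 had an unadjusted p below 0.05. The median difference was -0.01 over 13 tested exons of exon junction complex genes, the partners of RBM8A, and -0.04 over 17 of U2 and 3′ splice site genes, the partners of RBM39, RBM17 and RBM5. It was -0.07 over 9 of the m6A writer complex, which RBM15 recruits to RNA. Over 7 of other RBM-named genes it was -0.05, from 2 of the 6 genes on that list, which includes RBMX and RBMS1. It was -0.02 over 5 of the spliceosome's catalytic core, where RBM22 sits, and the exosome targeting and minor spliceosome lists had 1 tested exon each, at -0.09 and -0.04. Over all 53 the median was -0.04, beside -0.03 over all tested exons.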

How the data were processed

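Members and gene lists were chosen with earlier results of these data known. Alignment used STAR 2.7 and the build was hg38, per the submitters' processing notes. Libraries were made from total RNA with ScriptSeq v2 after DNase treatment, per the labels' protocols. The deposited tables are skipped-exon output of MISO, per the file headers. For the MISO version, the events it was given and the pooling of the 2 samples per group, the entry is the same: not given in the sources used here. Deposited as a fraction are Ψ and its 95% credible interval, and the deposited Bayes factor is a ratio. Reads per class are deposited as text.

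Events were matched to GENCODE release 29 and 1 event per exon was kept, that with the greatest isoform-specific depth. Python 3.11.15, pandas 2.3.3, scipy 1.17.1 (Fisher's exact test), statsmodels 0.14.6 (adjustment) and matplotlib 3.10.9 were used. A 2-isoform likelihood, checked on simulated data, recomputed Ψ and Bayes factors from the deposited reads. This was also done after subtraction of flanking intron density, and separately with scrambled reads scaled by 0.2114. That factor is the inverse of the isoform-specific read ratio over all events. Intron density was all reads matching neither form over the length of the flanking introns, so reads in other exons there count in it. The model's read length of 76 nt was inferred as the closest to the deposited Ψ among those tried (75 nt was nearly as close). Genes other than the RBM genes were the partner and marker lists named in the text.

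Exons named by rule were those called, those past the Bayes factor and size but not the read minimum, those passing the adjusted Fisher test, those with a scrambled Ψ of 0.1 to 0.9 on at least 50 isoform-specific reads, and the best-covered tested exon of each gene. Other exons named, such as the RBM39 156-nt and RBM23 139-nt exons, were chosen after their values were seen. Alternatives are in the closing section. The sequences of some exons are not reported here.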

Additional observations from a re-analysis of the deposited data

How the results depend on the processing

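The reference values are 1 RBM exon called higher, 1 lower and a median difference of -0.01 over 35 tested exons. At a minimum of 5 isoform-specific reads (58 exons), 3 were higher, the RBM18 125-nt and RBM4 110-nt exons being added, and the median was 0.0, beside 3.24% of 14323 exons called in all; with at least 20 (21 exons) the median was -0.02. A size of at least 0.2 left 0 higher. Fisher's exact test left 0 higher and 0 lower after adjustment, with 4 exons at an unadjusted p below 0.05. The inclusion share without shared reads gave 0 lower and a median of 0.0. Counting every event (41) gave 2 higher, both from the RBM39 896-nt exon, and a median of -0.02. The 2-isoform model gave 2 higher, with the RBM23 139-nt exon added, and 0 lower (4.7% of all exons called). After intron subtraction (30 exons with reads left) it gave 0 lower and a median of -0.0166, and 4.12% of all were called. With scrambled reads scaled by 0.2114, which matches isoform-specific reads over all events but not each class of RBM reads, it gave 0 lower, a median of 0.0051 and 1.8% of all called. A Bayes factor of at least 100 and matching by the skipped exon alone left both counts at 1. Of single exons named by the rule, 0 called ones changed sign and 5 uncalled ones did, 4 by the inclusion share (RBM23 113 nt, RBM25 105 nt, RBM4 424 nt, RBM6 1551 nt) and 3 with scaled reads (RBM17 141 nt, RBM25 105 nt, RBM6 1551 nt). The RBM39 896-nt exon was called under all alternatives but the size of 0.2 and the Fisher test. No paired analysis was possible because each group was deposited as 1 pooled read set, and for the same reason no sample could be left out. Depth is a limit: 42 exons fell below the read minimum in that group only.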

Other observations

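Among exons below the read minimum, some have a deep read set in the scrambled group alone, and these were picked after their values were seen. RBM5, a tumour suppressor that acts at 3′ splice sites, has a 64-nt poison exon with 0 inclusion reads in either group and 3 skipping reads with the SSE mimetic against 249 with the scrambled oligo. Shared reads of that event were 59 and 385.

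RBM8A, the exon junction complex subunit also called Y14, has a 120-nt poison exon (chromosome 1, 145919187 to 145919306, minus strand) with more inclusion reads in the shallower group, 10 against 1, and no skipping read. Its Ψ was 0.83 (0.50 to 0.99) against 0.37 (0.04 to 0.75), with a Bayes factor of 4.16 in the authors' deposited table. Coding exons had lower estimates on few reads. RBM28's 93-nt exon had 0.74 (0.42 to 0.97) against 0.97 (0.90 to 1.00) from 6 and 86 inclusion reads, and RBM7's 88-nt exon had 0.75 (0.40 to 0.97) against 0.97 (0.91 to 1.00) from 7 and 54. RBM39's 78-nt coding exon had 0.37 (0.17 to 0.69) against 0.60 (0.44 to 0.79) from 8 and 56. The intervals of all 4 exons overlapped between the groups.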
